A study of Mus musculus with 5 samples.

Results

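The late state of macrophages under lipopolysaccharide (LPS) was described by setting a library taken after 24 h of LPS against a library of resting cells at 0 h. The genes were those with a mean of at least 1 FPKM (a count of fragments divided by transcript length and library size) over the 5 libraries of the time course. This left 9795 of the 13339 genes listed. LPS, a component of the outer membrane of Gram-negative bacteria, was given at 100 ng/ml, and the other 3 libraries were taken at 4, 8 and 12 h. The cells were bone marrow-derived macrophages of C57BL/6 mice at an age of 8 weeks, labelled wild type and grown from marrow for 5 days with M-CSF, the growth factor of the lineage. The series title concerns the histone methyltransferase Setd2, but each of the 5 samples carries the wild-type label.

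Each time was 1 library, so no test was possible, and every value below compares a pair of libraries with no replicate check. Unstimulated cells kept for 24 h were not analysed here, so that time in culture and time in LPS cannot be told apart. In bulk RNA, fewer cells of a type and less RNA per cell cannot be told apart either. The extract protocol names dendritic cells where the other labels name macrophages. Libraries were centred on their median gene. Differences are those of log2(FPKM + 1), a scale on which low genes show less than their true fold. The words higher and lower stand for a centred difference of at least 1, which is 2-fold. Where 5 values of a gene are given, they are those at rest (0 h) and at 4, 8, 12 and 24 h of LPS, in that order. Where a gene is given with a pair of FPKM values, the first is that of the 0 h library and the second that of the 24 h library. Gene families with close copies (the Gbp, Ifi20x, H2-Q, Schlafen and Ly6 genes and the ribosomal proteins with their pseudogenes) may share reads.

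LPS is sensed by TLR4, which signals through MyD88 to NF-kappaB and the MAP kinases and through TRIF to IRF3 and type I interferon. Interferon then acts back on the cells through STAT and IRF factors, which bind the interferon-stimulated response element in the promoters of antiviral genes. Macrophages that remain in LPS are known to change their metabolism and to enter a state in which some inflammatory genes are silenced while others stay accessible.

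At 24 h, 1163 of the 9795 genes (11.9%) were above their resting level by 2-fold or more, and 1321 (13.5%) were below it by as much, together 25.4%. A level at least 4-fold higher was seen at 4.7% of the genes. These shares are the background for every group below. The interferon-induced GTPases had the highest median difference among 101 lists of gene functions, and the cytosolic ribosomal proteins the lowest. The middle 95% of the differences ran from -2.19 to 2.73, and the extremes were 11.07 (Saa3) and -5.35 (Lpl). The 12 h and 8 h libraries, which are not replicates, differed 2-fold at 2.96% of the genes. At 4, 8 and 12 h the share of genes past 2-fold from rest, in either direction, was 35.7%, 33.2% and 29.5%. From 12 h to 24 h it was 7.5%, made up of 1.4% higher at 24 h and 6.11% lower. At least 16-fold higher were 112 genes and at least 16-fold lower 27. Just inside the filter lay Syp, Zfp11 and Cbx7, each with a mean of 1.002 FPKM, and just outside it Abcb1a, Rad18 and Unc5b with 0.998. In the 0 h library 19 of the genes were listed at 0, among them H2-Q8, Ch25h and Ifnb1, and in the 24 h library Mpo and Bex1.

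**Figure D1:**
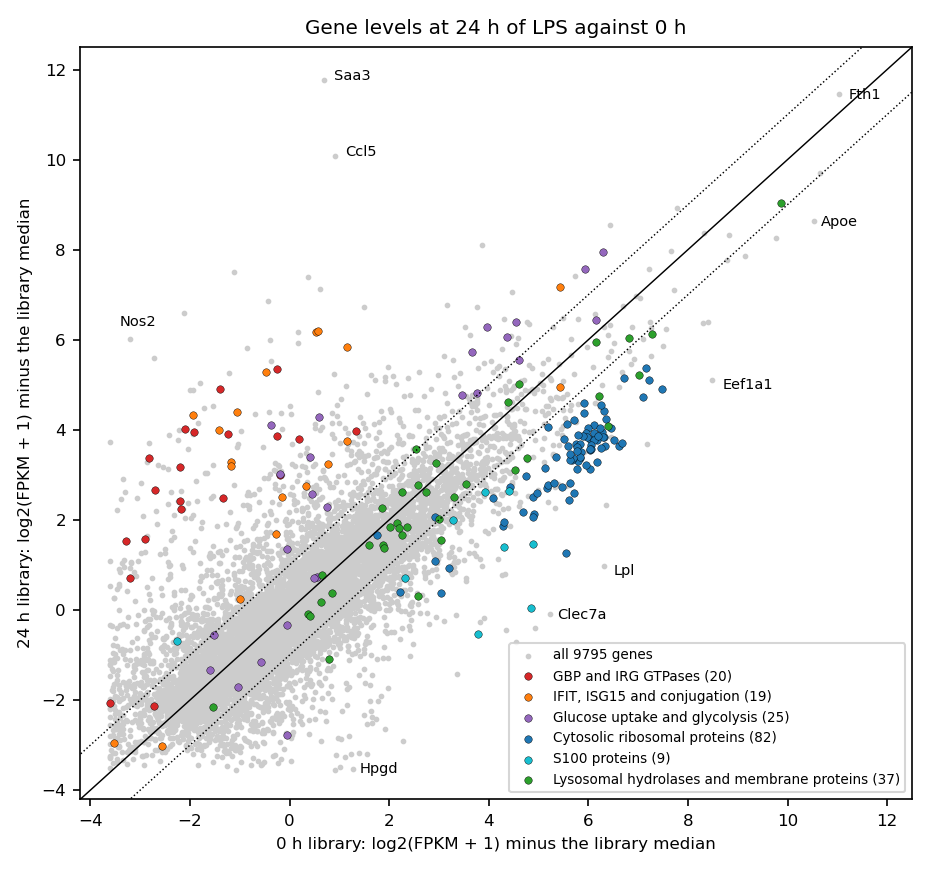
Level of each of the 9795 genes in the 24 h library (vertical) against the 0 h library (horizontal), as log2(FPKM + 1) minus the library median, 1 point per gene; the solid line marks equal levels, the dotted lines 2-fold, and colours mark 6 gene lists. Most GTPase and IFIT genes lie above the dotted lines, and the ribosomal proteins form a group of abundant genes below them.

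The difference moved with transcript length. Genes at least 2-fold higher had a median transcript length of 3457.5 nt and those at least 2-fold lower 1953 nt, against 3150.5 nt for the rest. With the genes ordered by length and cut into 10 equal groups, the median difference ran from -0.73 for the shortest to 0.40 for the longest. The part of length in the results was not tested, and values with this trend removed are given beside many of the results below. Among the lists above rest, it gave larger medians for the interleukins (2.03 and 2.46), chemokines (2.04 and 2.73), Ly6 antigens (2.27 and 2.98), Ms4a proteins (3.15 and 3.69) and immunoproteasome (1.14 and 1.67). Smaller medians came for the NF-kappaB and IkappaB genes (2.01 and 1.78), the inflammasome list (1.26 and 1.065) and apoptosis and necroptosis (1.04 and 0.98). The last of these thus came under 2-fold. Of the genes named below, Atp6v0a2, Clcn7, Cyba, Fabp5, Fbl, Idh3g, Mapk3, Rpl41, Sod1, Tet2 and Tyrobp came under 2-fold with the trend removed. With a pseudocount of 5 FPKM in place of 1, C5ar2, Ccr2, Epas1, Ggps1, Il16, Kdm6b, Ly6g, Parp1, Pycard, S100pbp and again Atp6v0a2, Clcn7 and Tet2 did so, most of them genes with low values. Clcn7 did so without centring too.

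The label macrophage was set against markers. All 12 macrophage markers were over the filter, and their summed level was 7177 FPKM at 0 h and 4493 at 24 h. Adgre1, the gene of F4/80, stood at 340.5 FPKM at rest, then 429, 461, 602 and 967 under LPS. Of the same list Fcgr1 and Itgam were also higher, while Cd68 and the complement genes C1qa, C1qb and C1qc were among those lower. Of 11 dendritic cell markers listed, 4 were over the filter, and Zbtb46, Flt3 and Clec9a had at most 0.32 FPKM in both libraries. Of those over the filter, Ccr7 (1.20 and 9.13 FPKM) and Fscn1 (1.95 and 8.57 FPKM) were higher at 24 h. Itgax, the gene of CD11c, was lower (centred difference -2.94). The 11 markers summed to 54.35 FPKM at 0 h and 27.29 at 24 h. Neutrophil markers summed to 384 FPKM at 0 h and 130.3 at 24 h, and 6 of the 9 over the filter were lower and 1 was higher (Ly6g, 0.12 and 3.71 FPKM). Among the lower were the granule genes Ltf (11.4 and 0.16 FPKM) and Mpo, listed at 0 at 24 h. Sums of the lymphoid (3.66 and 1.55 FPKM), mast cell (4.34 and 5.77), erythroid and megakaryocyte (81.7 and 29.7) and stromal (15.2 and 35.9) markers were small. The part of these markers in the results was not tested.

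Genes of the interferon response made up most of the lists with the highest medians at 24 h. The GTPases of the GBP and IRG families, which attack the vacuoles of intracellular microbes, were at least 2-fold higher in 19 of 20 cases, with a median difference of 4.54 against -0.06 for all genes. Gbp5 stood at 1.87 FPKM at rest, then 1113, 877, 548 and 189 under LPS. Tgtp2, of the IRG branch, stood at 2.24 FPKM at rest, then 187, 302, 257 and 181 under LPS. All 4 LPS libraries were thus far above 0 h for both, and the 24 h value was below that of 12 h. The antiviral GTPase gene Mx1 had 3.67 FPKM at rest and 352 at 24 h, a ratio of 95.8. Irgm1, which restrains the other IRG proteins, had the highest level of the list at 0 h (29.7 and 184 FPKM) and a smaller ratio of 6.2.

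Other antiviral families showed the same direction. In the list of RNase L and the OAS family, some of whose members make the messenger that switches it on, 8 of 9 were higher, with a median of 3.27. The OAS-like gene Oasl1 stood at 2.17 FPKM at rest, then 348, 347, 389 and 349 under LPS, nearly level over the LPS libraries. The Schlafen family was higher in 7 of 7 cases (median 3.25). Slfn4 climbed through the course, with 0.86 FPKM at rest, then 51.6, 236, 431 and 567 under LPS. Slfn9 had its highest value at 4 h, with 1.02 FPKM at rest, then 80.6, 34.3, 34.5 and 26.96 under LPS. In the list of IFIT proteins, which bind viral RNA, and of the ubiquitin-like Isg15 with its enzymes, 16 of 19 were higher. Their median was 2.67, and 4.34 among genes with a mean of at least 5 FPKM. Isg15 stood at 17.2 FPKM at rest, then 1051, 1886, 1565 and 869.6 under LPS. Ifit1bl1 stood at 2.19 FPKM at rest, then 40.01, 74.6, 149 and 237 under LPS. Ifitm2, a membrane protein that blocks virus entry, had 527 FPKM at rest and 365 at 24 h and stayed within 2-fold, while its relative Ifitm3 had 529 and 1700.5. Of the p200 and other interferon-inducible genes 22 of 27 were higher, with Ifi44 at 1.10 FPKM at rest and 105 at 24 h, and 1 was lower, Ifi27, at 92.6 FPKM at rest and 9.60 at 24 h.

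The sensors of foreign nucleic acid were higher in 9 of 12 cases (median 2.64). Zbp1, a sensor of Z-form nucleic acid, stood at 11.4 FPKM at rest, then 199.6, 360.4, 316 and 239.6 under LPS. Ddx58, the gene of RIG-I, stood at 8.83 FPKM at rest and 101 at 24 h. Tmem173, the gene of STING, was within 2-fold (14.3 and 11.4 FPKM). Of the IRF, STAT and JAK list 9 of 21 were higher, led by Irf7, the factor that amplifies interferon production, with 33.5 FPKM at rest, then 472, 1066, 1304 and 1251 under LPS. Stat2 had 16.3 FPKM at rest and 205 at 24 h, whereas Irf5 had 124 and 172 and stayed within 2-fold. PARP genes split within the family: 7 of 12 were higher, among them Parp14 (22.6 and 233 FPKM), and Parp1, the DNA repair enzyme, was lower at 25.01 and 10.97 FPKM. Of the TRIM ubiquitin ligases 10 of 34 were higher and 4 lower (median 0.35), and Trim30a stood at 21.1 FPKM at rest and 176 at 24 h against 16.3 and 2.34 for Trim47.

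The promoters of these genes were read for the response element of interferon, with the letters TTTC repeated after a gap of any 2 bases, or GAAA repeated in the same way where the element lies on the other strand. Promoters of RefSeq (GRCm38.p6), from 250 bases before to 50 after the start, were matched for 8001 of the 9795 genes (81.68%). The stretches below, in the direction of transcription, come from 6 genes of the GTPase and antiviral groups and from the chemokine gene Cxcl10, with the match in capitals and 18 bases on either side.
Gbp5 (chr3:142496751-142496796, plus strand): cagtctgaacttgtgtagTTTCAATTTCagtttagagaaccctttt
Gbp2 (chr3:142620586-142620631, plus strand): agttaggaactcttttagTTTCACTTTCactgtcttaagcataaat
Tgtp2 (chr11:49064255-49064300, minus strand): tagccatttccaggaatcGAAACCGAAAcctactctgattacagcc
Ifit1 (chr19:34640786-34640831, plus strand): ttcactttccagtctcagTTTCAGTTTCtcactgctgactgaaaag
Isg15 (chr4:156200857-156200902, minus strand): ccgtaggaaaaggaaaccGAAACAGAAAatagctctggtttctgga
Rsad2 (chr12:26456545-26456590, minus strand): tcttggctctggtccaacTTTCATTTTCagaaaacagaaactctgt
Cxcl10 (chr5:92349075-92349120, minus strand): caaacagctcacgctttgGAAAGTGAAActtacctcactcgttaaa
The match begins at -66 in Isg15 and -70 in Tgtp2, close to the start, and at -213 in Cxcl10, counted from the start. Such a match stood in 10.3% of the promoters of genes at least 2-fold higher (98 of 947), in 2.64% of those at least 2-fold lower and in 3.5% of all. Among genes at least 16-fold higher it stood in 28.0% (23 of 82). These 23 include relatives with the same letters around the match, such as Ifit3 and Ifit3b or Pydc3 and Pydc4. They are thus not all separate cases. Promoters were matched for 10 of the 20 GTPases, 6 of 9 in the OAS list and 17 of 19 in the IFIT list. They were matched for 6 of 7 Ms4a genes and 14 of 22 chemokines, without Ccl5 and Ccl2. The interferon match was found in all 10 of these GTPase promoters, in 4 of 6 of the OAS list and 7 of 17 of the IFIT list. Among the Ms4a genes it was found in 0 of 6 and among the chemokines in 1 of 14. In the promoters of the cytosolic ribosomal proteins, the list with the lowest median, it stood in 7 of 61 (11.5%). Of the 280 genes with a match 35.0% were at least 2-fold higher. A match is a description of letters and not a site of binding.

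Other letters were searched in the same promoters. The AP-1 letters TGANTCA stood in 25.6% of the promoters of genes at least 16-fold higher, in 8.51% of those at least 8-fold lower and in 5.0% of all. The ETS letters CCGGAAGT were sparse at both extremes, with 1.22% of the former, 0 of 47 of the latter and 9.74% of all. The genes at least 16-fold higher also had promoters poor in CpG: the median ratio of observed to expected CpG was 0.226, against 0.786 over all promoters, and 78.0% of them lay under 0.5, against 17.7%. The genes at least 8-fold lower lay between, with a median of 0.436 and 55.3% under 0.5. Both strands were read, and 1 promoter can hold several motifs: 24 promoters held both the interferon and the AP-1 letters, 16 of them of genes at least 2-fold higher.

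**Figure D2:**
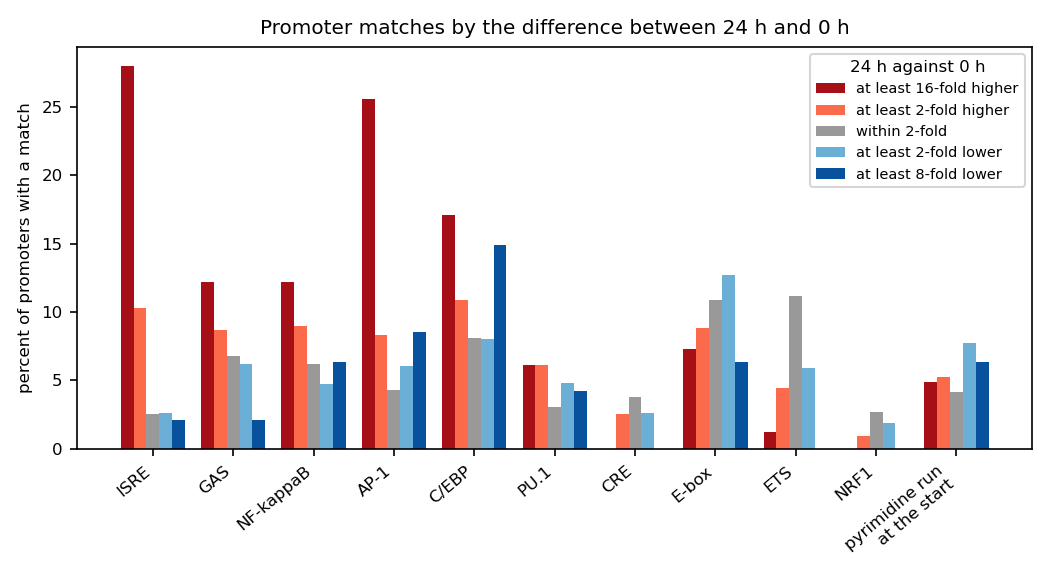
Percent of promoters (300 bases, RefSeq) with at least 1 match to each motif, for genes grouped by their difference between 24 h and 0 h, 1 bar per group. The interferon element stands in 28.0% and the AP-1 letters in 25.6% of the promoters of genes at least 16-fold higher, and the ETS letters in 1.22% of them.

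Genes for presenting peptides on MHC class I were higher as a group, in 17 of 20 cases with a median of 1.81. B2m, the light chain, stood at 2689.8 FPKM at rest, then 3038, 4815, 5229 and 5708 under LPS, among the 10 highest genes of the 24 h library. The class I genes H2-Q7 (0.73 and 154 FPKM) and H2-Q6 (0.47 and 65.3 FPKM) had larger ratios from low levels, and H2-T22 had 47.3 FPKM at rest and 494 at 24 h. Pdia3, a folding enzyme of the loading complex, was within 2-fold. Of the immunoproteasome and its activator 4 of 6 were higher (median 1.14), with Psmb8 at 104 FPKM at rest, then 209, 430.5, 475 and 232 under LPS, whose 24 h value lay well below that of 12 h. The constitutive proteasome differed little, with 1 of 39 higher, 2 lower and a median of 0.23. In the list of MHC class II and costimulation 6 of 14 were lower, among them the invariant chain Cd74 (856 and 285 FPKM), H2-Eb1 (87.6 and 20.9 FPKM) and Cd83, a surface protein of activated antigen-presenting cells (55.5 and 6.52 FPKM). Against these, Cd274, the gene of the inhibitory ligand PD-L1, stood at 21.6 FPKM at rest, then 398, 448, 469 and 445 under LPS. Cd40 stood at 2.37 FPKM at rest, then 749.9, 659, 261 and 62.1 under LPS. Cd274 kept its level from 4 h to 24 h, and Cd40 at 24 h was at a small part of its 4 h level.

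Most secreted signals were above rest at 24 h, but the medians of interleukins and chemokines were below those of 4 h. Of the interleukins, interferons and their inhibitors 13 of 18 were higher and 1 lower (median 2.03, and 1.005 with a pseudocount of 5). The median of the list was 4.48, 3.88, 3.22 and 2.03 over the 4 LPS times in turn. Il1b, the precursor of a fever-inducing cytokine, stood at 2.5 FPKM at rest, then 2323, 1104, 1031 and 389 under LPS. Il1rn, which blocks the IL-1 receptor, stood at 12.7 FPKM at rest, then 893, 2573, 2170.4 and 722 under LPS, and at 24 h its level was above that of Il1b. Il18bp, the soluble inhibitor of IL-18, went on to higher values, with 13.2 FPKM at rest, then 37.8, 85.1, 97.52 and 127 under LPS. Il16 was lower (7.28 and 1.10 FPKM). Of the TNF ligands 5 of 8 were higher and 2 lower (median 1.24, and 0.44 with a pseudocount of 5). Tnf had 9.93 FPKM at rest, then 2183, 748, 379 and 189 under LPS, and the ligands Tnfsf12 (126 and 23.9 FPKM) and Tnfsf13 (46.9 and 2.54 FPKM) were lower. The receptors of this family were higher in 9 of 16 cases, with a median of 1.23 that was 0.59 with a pseudocount of 5. In this group Tnfrsf1b, a receptor of TNF, stood at 149.9 FPKM at rest and 811 at 24 h and the death receptor gene Fas at 3.65 and 28.1.

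The chemokines differed among themselves. Of 22 over the filter 14 were higher, with a median of 2.04 (3.64 among genes with a mean of at least 5 FPKM, and 1.05 over all listed with no filter), and 4 were lower. Ccl5, which draws T cells and monocytes, stood at 21.99 FPKM at rest, then 4730.1, 10475, 10084 and 12779 under LPS. Ccl2, which draws monocytes, stood at 4.25 FPKM at rest, then 400.5, 235, 365 and 452 under LPS. Cxcl10, induced by interferon, stood at 8.09 FPKM at rest, then 5616, 2499.9, 1703 and 1364 under LPS. Ccl5 was highest at 24 h and Cxcl10 at 4 h. Ccl6 was lower at each later time, with 172 FPKM at rest, then 80.8, 57.8, 37.9 and 8.86 under LPS. The median of the list was 5.44, 4.91, 3.80 and 2.04 over the 4 LPS times in turn, each against the same 0 h library. Of the chemokine receptors Cxcr4, which holds cells in the marrow, had 142 FPKM at rest, then 1.31, 1.60, 7.10 and 18.5 under LPS, Ccr2, the receptor of Ccl2, 8.42 FPKM at rest and 2.07 at 24 h, and Ccrl2, a receptor that binds its ligands without signalling, 20.5 and 77.3.

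**Figure D3:**
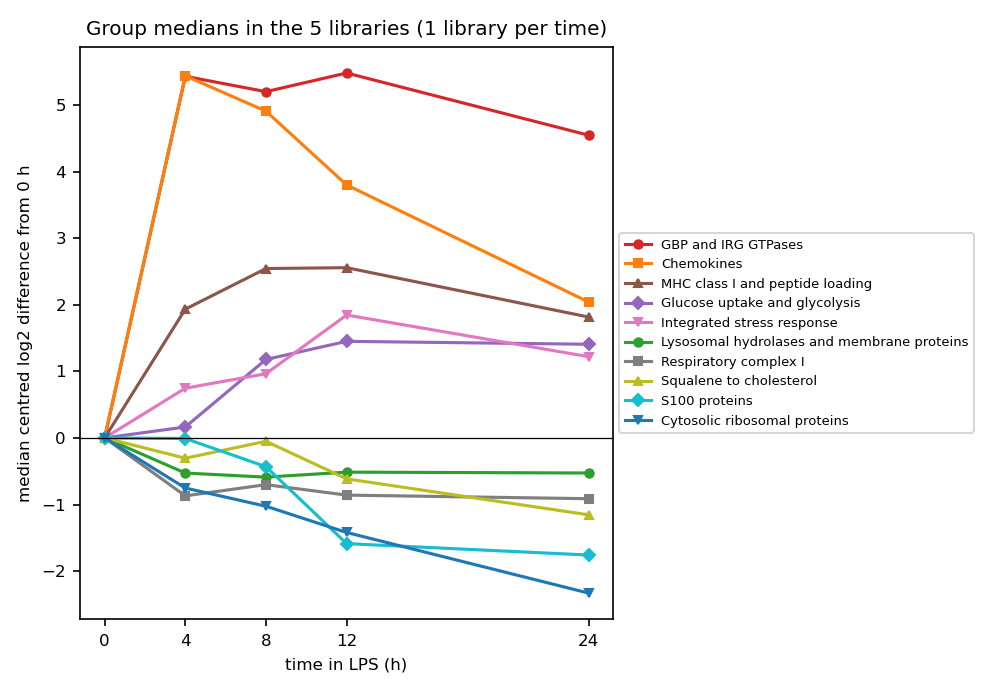
Median centred difference from 0 h (vertical, log2) of 10 gene lists against time in LPS (horizontal, h), with 0 h at 0, 1 line per list and 1 library per time, all against the same 0 h library. The GTPases stay above 4 at all times, the chemokines come down from 5.44 at 4 h to 2.04 at 24 h, and the ribosomal proteins go from -0.75 to -2.33.

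Many relays behind these signals, and many of their inhibitors, were higher too. Of the NF-kappaB and IkappaB genes 7 of 11 were higher (median 2.01, and 1.17 with a pseudocount of 5). Nfkbia, which holds NF-kappaB in the cytoplasm, stood at 58.95 FPKM at rest, then 881, 671, 469.9 and 318 under LPS. Nfkbie, a relative, stood at 6.73 FPKM at rest and 45.7 at 24 h. Among the kinases and adaptors of the TLRs 7 of 19 were higher and 0 lower, with Irak3, the inactive kinase that restrains the pathway, at 8.55 FPKM at rest, then 38.8, 88.4, 101 and 60.9 under LPS. In the list of A20, TRAF and other restraints 9 of 19 were higher, among them Tnfaip3, the gene of A20 (6.94 and 61.7 FPKM), and Traf1 (1.84 and 47.6 FPKM). Of 4 lower genes in that list Zfp36l1 (55.1 and 16.7 FPKM) and Zfp36l2 (154 and 48.8 FPKM) bind AU-rich mRNA, as does Zfp36, which was higher (82.3 and 229). Socs3, an inhibitor of cytokine receptors, stood at 2.71 FPKM at rest, then 763, 505, 408 and 263 under LPS. Usp18, which removes Isg15 and restrains the interferon receptor, stood at 4.88 FPKM at rest and 246 at 24 h. Socs6 was lower at 30.04 and 7.95. The phosphatase gene Dusp1, which switches off MAP kinases, had 9.56 FPKM at rest and 107 at 24 h, and of its family 7 of 15 were higher and 3 lower. The MAP kinases themselves were higher in 3 of 24 cases, with Mapk3, the gene of ERK1, lower at 206 FPKM at rest and 93.4 at 24 h and within 2-fold once the length trend was removed (-0.81).

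Of 19 transcription factors of the lineage 12 were within 2-fold, 2 were higher and 5 lower. The share of lower genes was above the background of 13.5%, and the median was -0.06. Spi1, the gene of PU.1, stood at 252 FPKM at rest and 235 at 24 h. Cebpb stood at 69.2 FPKM at rest, then 211, 233, 254 and 255 under LPS. Its relative Cebpa stood at 93.99 FPKM at rest, then 2.04, 2.30, 8.22 and 19.1 under LPS. These relatives thus lay on opposite sides of rest, and Cebpa was lowest at 4 h. Spic, a relative of PU.1 linked to iron-handling macrophages, had 1.33 FPKM at rest, then 4.61, 42.2, 47.5 and 33.5 under LPS. Tfeb, a regulator of lysosome genes, had 48.6 FPKM at rest, then 1.32, 4.05, 9.31 and 10.97 under LPS. Egr2 had 17.9 FPKM at rest and 0.57 at 24 h. Batf (5.90 and 57.2 FPKM) and Batf2 (2.99 and 25.9 FPKM), partners of AP-1 factors, were higher. Among 17 nuclear receptors 1 was higher and 1 lower, the latter Pparg, the lipid sensor, with 36.9 FPKM at rest, then 3.85, 1.67, 0.58 and 1.51 under LPS.

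Families of surface receptors held members on both sides of rest. Of 20 C-type lectins 4 were higher and 6 lower. Clec4e, the receptor Mincle for mycobacterial lipid, stood at 12.7 FPKM at rest, then 776, 1576, 1529 and 855 under LPS. Clec7a, the glucan receptor Dectin-1, stood at 457 FPKM at rest, then 142, 42.4, 25.2 and 10.1 under LPS. Clec10a (25.6 and 0.23 FPKM) and the mannose receptor gene Mrc1 (45.5 and 0.89 FPKM), both sugar receptors of alternatively activated cells, were lower. In the list of TREM, CD300 and paired receptors 10 of 24 were higher and 7 lower. Trem2, a receptor for lipids and apoptotic cells, stood at 1003 FPKM at rest, then 307, 212, 125 and 58.8 under LPS. Its adaptor Tyrobp stood at 1868 FPKM at rest, then 673, 630.5, 573 and 589 under LPS. Pilra, an inhibitory receptor, had 2.19 FPKM at rest and 27.9 at 24 h, and Cd300e 0.11 and 8.02. Among Fc receptors Fcgr1, the high-affinity IgG receptor, stood at 73.1 FPKM at rest, then 198, 500.0, 542 and 461 under LPS and the inhibitory Fcgr2b at 86.3 FPKM at rest and 356 at 24 h, whereas Fcgrt, which recycles IgG, was lower at 73.97 and 10.2 and Fcrls at 36.4 and 1.91.

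Integrins were higher in 5 of 15 cases and lower in 5. Itgal, the alpha chain of LFA-1, stood at 10.03 FPKM at rest, then 79.8, 85.6, 129.7 and 93 under LPS. Itga5, of the fibronectin receptor, stood at 26.8 FPKM at rest and 179 at 24 h. Itgax, the gene of CD11c, stood at 43.96 FPKM at rest, then 30.8, 18.3, 15.02 and 4.65 under LPS. Itgb5 stood at 114 FPKM at rest and 20.1 at 24 h. The common chain Itgb2 was within 2-fold. The formyl peptide receptor genes Fpr1 (1.63 and 186 FPKM) and Fpr2 (2.43 and 209 FPKM), which sense bacterial peptides, were higher. C5ar2, a receptor of complement C5a, was lower (5.48 and 0.64 FPKM). In the list of Toll-like receptors and co-receptors 4 of 15 were higher and 0 lower, and of the Tlr genes alone 3 of 9 were higher. Tlr1 stood at 26.4 FPKM at rest and 109 at 24 h. Tlr9, a sensor of DNA, stood at 5.52 FPKM at rest, then 14.9, 14.2, 22.2 and 33.1 under LPS. Of the genes of lipid uptake and scavenger receptors 2 of 12 were higher and 6 lower (median -0.90). The lowest was Lpl, lipoprotein lipase, with 974 FPKM at rest, then 374, 149.7, 77.2 and 22.1 under LPS. The scavenger receptor genes Msr1 (45.1 and 425 FPKM) and Marco were higher, Marco with 1.57 FPKM at rest, then 9.97, 52.3, 82.4 and 161 under LPS, and Cd5l, a scavenger protein secreted by macrophages, was lower at 42.7 and 2.13. Of the Ms4a proteins of the membrane 6 of 7 were higher (median 3.15, and 0.99 over all listed members with no filter). Ms4a6d stood at 109 FPKM at rest, then 485, 1188, 1436 and 1298 under LPS, while Ms4a7 was within 2-fold at 513 and 306. Of the Ly6 antigens 7 of 9 were higher (median 2.27, and 1.06 with a pseudocount of 5). Ly6a, the antigen Sca-1, was far higher at 24 h than at 12 h, with 8.39 FPKM at rest, then 12.9, 34.5, 87.6 and 541 under LPS, as was Ly6i, with 0.20 FPKM at rest, then 1.64, 9.73, 35.96 and 87.99 under LPS.

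**Figure D4:**
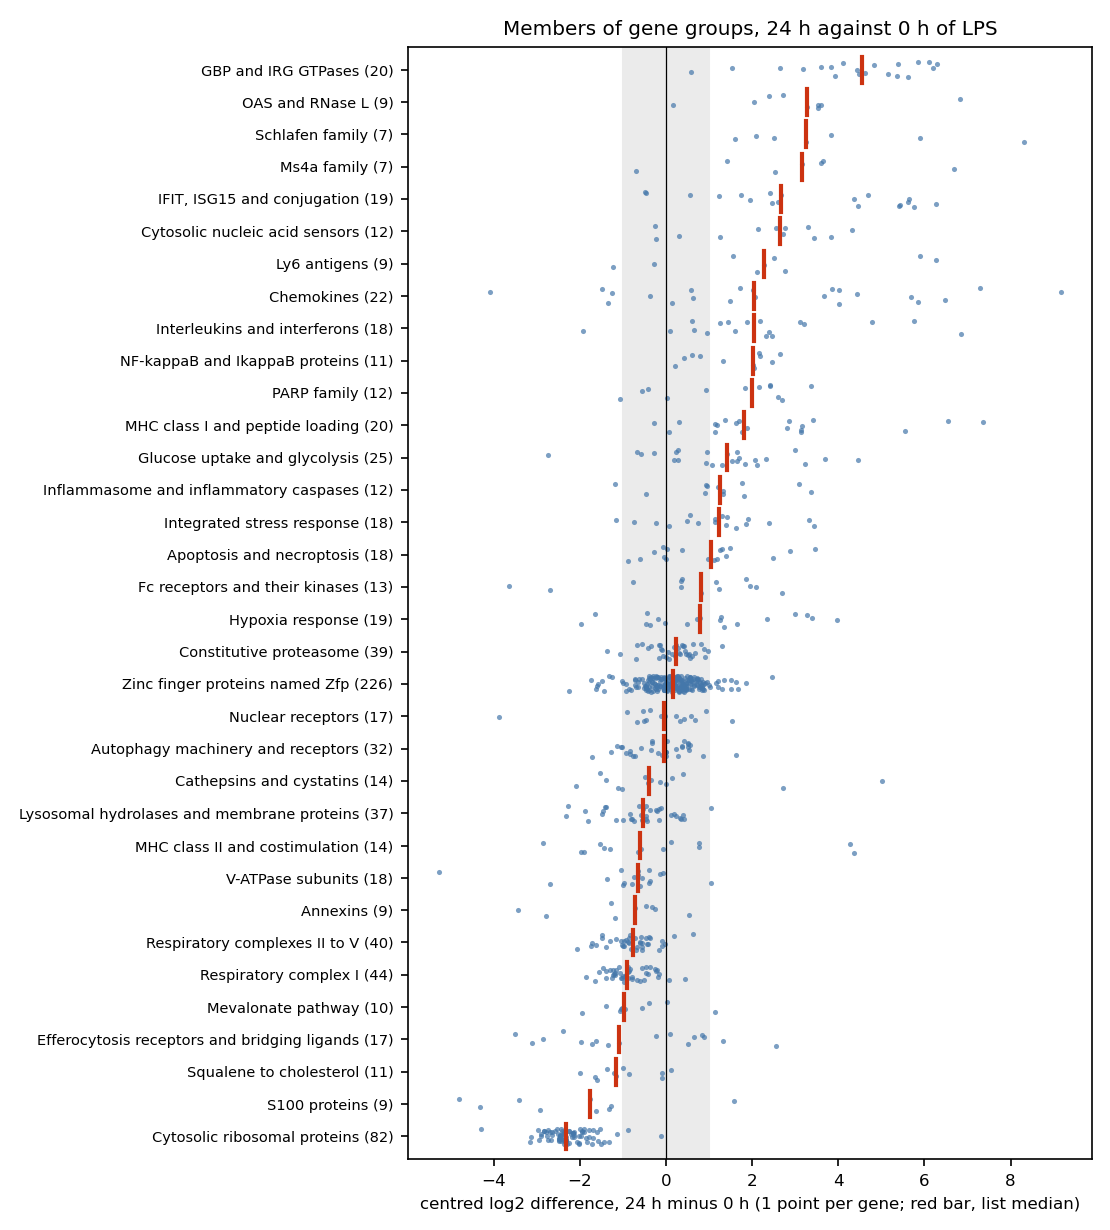
Centred log2 difference between 24 h and 0 h (horizontal) of each gene of 34 lists, 1 point per gene over the filter, with the list median as a red bar and the number of genes in brackets; the grey band marks differences under 2-fold. The GTPases and the ribosomal proteins lie almost wholly on opposite sides of the band, while chemokines, Fc receptors and cathepsins have members on both sides.

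Secreted defence proteins took a large share of the 24 h library. The list of acute-phase, iron-binding and antimicrobial proteins held 0.096% of the summed FPKM of all listed genes at 0 h and 8.98% at 24 h. Saa3 (gene 20210; chromosome 7, 46711998 to 46719615, GRCm38), a serum amyloid, alone made up 8.42% at 24 h, with 18.7 FPKM at rest, then 2036, 17416, 24852 and 40998 under LPS. Lcn2, which withholds bacterial iron carriers, stood at 17.6 FPKM at rest, then 183, 1183, 1793 and 1643 under LPS, Hp, haptoglobin, at 3.18 FPKM at rest and 274 at 24 h. Slpi, a protease inhibitor named here after its value was seen, stood at 4.93 FPKM at rest and 150.4 at 24 h. The count was 8 of 17 higher and 5 lower. Among the lower genes were granule proteins, and Ngp stood at 35.1 FPKM at rest, then 38.98, 11.96, 4.10 and 0.28 under LPS. Lyz1, a lysozyme also named after its value was seen, stood at 88.9 FPKM at rest and 35.9 at 24 h. The median was 0.69, and 1.55 with the length trend removed. Ngp and Ltf are also neutrophil markers, whose summed level is given above.

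In 9 of the 14 promoters of this list that were matched (64.3%) stood the letters TTGCNNAA of the C/EBP factors on either strand, against 8.42% of all 8001. These 9 belonged to both directions, with 5 genes higher and 3 lower. The stretches of 3 higher genes and 1 lower gene show the match in capitals, with up to 18 bases on either side inside the promoter window.
Saa3 (chr7:46715750-46715793, minus strand): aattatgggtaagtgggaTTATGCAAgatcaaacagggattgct
Lcn2 (chr2:32387930-32387973, minus strand): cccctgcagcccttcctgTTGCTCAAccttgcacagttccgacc
Slpi (chr2:164356723-164356757, minus strand): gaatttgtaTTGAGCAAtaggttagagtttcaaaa
Lyz1 (chr10:117293052-117293095, minus strand): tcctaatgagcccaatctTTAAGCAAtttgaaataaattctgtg
Counted from the start, the match begins at -99 in Saa3 and at -209 in Lyz1. The 5 promoters of the list without a match had a median difference of -0.04, and the 9 with one 2.41. The latter is the value of Saa2, a gene with 0 FPKM at 0 h and 4.14 at 24 h. The 9 include the neighbouring relatives Saa1, Saa2 and Saa3, so they are not separate cases.

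Complement and enzymes of nitric oxide differed by member. Cfb, a factor of the alternative pathway, stood at 1.80 FPKM at rest, then 80.2, 609, 1097 and 1148 under LPS, and C3 stood at 17.03 FPKM at rest and 337 at 24 h. The chains of C1q were lower, C1qb with 2199.8 FPKM at rest, then 1224, 1225, 1073 and 682 under LPS. Nos2, which makes nitric oxide from arginine, stood at 0.32 FPKM at rest, then 291, 927, 1155 and 761 under LPS. The arginine importer Slc7a2 (0.91 and 53.4 FPKM) and Ass1, which rebuilds arginine (2.85 and 96.8 FPKM), were higher too. Arg1, arginase, which splits it, appeared late, with 0.22 FPKM at rest, then 0.04, 0.14, 1.86 and 21.8 under LPS. Qdpr, which recycles the cofactor of nitric oxide synthase, was lower (65.1 and 11.6 FPKM), and so was Sat1, of polyamine breakdown (474 and 129 FPKM). Of the oxidase that makes superoxide, the subunit gene Cybb was higher (293 and 772 FPKM) and its partner Cyba lower (1669 and 764 FPKM; -0.21 with the length trend removed). Sod2, the mitochondrial superoxide dismutase, had 22.5 FPKM at rest and 278 at 24 h, and Sod1, the cytosolic one, 283 and 102.

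Inflammasome, apoptosis and necroptosis genes were higher more often than the background. The BCL2 family had 1 of 14 higher and 1 lower (median 0.11), too few genes to tell from the background. Of the inflammasome list 7 of 12 were higher (median 1.26, and 0.95 with a pseudocount of 5), with the inflammatory caspase genes Casp4 at 12.2 FPKM at rest and 107 at 24 h and Casp1 at 58.2 and 199. Nlrp3, a sensor, had 6.27 FPKM at rest, then 174, 63.2, 44.5 and 22.7 under LPS, and Pycard, the adaptor ASC, was lower at 20.9 and 8.29. In the list of apoptosis and necroptosis 9 of 18 were higher and 0 lower. Their median of 1.04 was 0.99 without centring and 0.98 with the length trend removed. Mlkl, the executioner of necroptosis, stood at 5.81 FPKM at rest, then 70.7, 103, 94.9 and 71.9 under LPS, and Cflar (14.1 and 106 FPKM) and Birc3 (14.6 and 83.9 FPKM), which restrain cell death, were higher.

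Genes of glucose uptake and glycolysis were mostly higher, while the lists of the respiratory chain had negative medians under 2-fold, with most members within 2-fold. Of 25 genes of glucose uptake and glycolysis 15 were higher and 1 was lower. Their median was 1.41, and the list held 0.811% of the summed FPKM at 0 h and 2.37% at 24 h. Gapdh, a glycolytic enzyme often taken as a reference, stood at 954 FPKM at rest, then 568, 1088, 1958 and 2900.1 under LPS. Slc2a6, a glucose transporter family member, stood at 9.66 FPKM at rest, then 383, 598, 474 and 95.1 under LPS. Slc16a3, which exports lactate, stood at 17.4 FPKM at rest, then 27.3, 119, 217 and 230.0 under LPS. Slc2a6 at 24 h was far below its 8 h level, and Slc16a3 was highest at 24 h. Ldhb, the lactate dehydrogenase subunit of oxidative tissues, was the lower member, with 10.8 FPKM at rest, then 3.09, 1.72, 1.83 and 0.73 under LPS. The list's median was 0.16, 1.18, 1.45 and 1.41 over the 4 LPS times in turn. The pentose phosphate pathway was within 2-fold in all but Pgls (119.6 and 23.6 FPKM), with G6pdx, its first enzyme, at 99.2 and 177.

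Genes of respiratory complex I, a list that includes assembly factors, were lower in 19 of 44 cases and higher in 0. Those of complexes II to V, listed with cytochrome c, were lower in 11 of 40. The medians were -0.91 and -0.76. With the length trend removed they were -0.25 and -0.12. Ndufb11 stood at 95.8 FPKM at rest, then 28.3, 23.7, 22.7 and 24.9 under LPS. Atp5g2, of the membrane ring of ATP synthase, stood at 239 FPKM at rest, then 77.3, 78.9, 73.8 and 54.9 under LPS. Both were lower already at 4 h. Atp5b, the catalytic subunit, was within 2-fold at 249.9 FPKM at rest and 228 at 24 h. Cycs, cytochrome c, had 22.4 FPKM at rest, then 53.4, 88.5, 70.1 and 34.1 under LPS. Mitochondrial ribosomal proteins were lower in 14 of 77 cases, and their median of -0.52 was -0.03 with the length trend removed.

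In the TCA list 6 of 22 were lower, among them the isocitrate dehydrogenases Idh2 (30.5 and 7.28 FPKM) and Idh3g (57.8 and 20.96 FPKM), and 1 was higher. That gene was Acod1, whose enzyme turns the TCA intermediate aconitate into itaconate, with 4.63 FPKM at rest, then 3121, 2804, 2247 and 2145 under LPS. Hypoxia-response genes were higher in 9 of 19 cases, with a median of -0.34, 0.39, 0.75 and 0.79 over the 4 LPS times in turn. Ankrd37 stood at 1.31 FPKM at rest, then 0.12, 2.06, 10.8 and 22.5 under LPS. Egln3, an oxygen-sensing hydroxylase, stood at 0.40 FPKM at rest, then 0.38, 1.78, 12.7 and 20.3 under LPS. Epas1, the gene of HIF-2 alpha, was lower at 4.24 and 0.30. Antioxidant genes were higher in 11 of 27 cases, and their share of the summed FPKM was 0.715% at 0 h and 2.41% at 24 h. Hmox1, which breaks down heme, stood at 177 FPKM at rest, then 44.2, 369, 1255 and 3228 under LPS. The peroxidase gene Prdx1 stood at 1061 FPKM at rest, then 789.7, 1089, 1729.7 and 4455 under LPS. Mgst3 was lower at 37.8 and 3.34.

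Heme and iron genes held 8.97% of the summed FPKM at rest, 3.97% after 4 h of LPS and 9.80% after 24 h, with ferritin as the most abundant. Of 20 genes 6 were lower and 3 higher. Fth1, the heavy chain, stood at 25573 FPKM at rest, then 11905, 20058, 24090.1 and 33082 under LPS, within 2-fold between 0 h and 24 h. Ftl1, the light chain, named after its value was seen, stood at 19595 FPKM at rest, then 4679, 4092, 5685 and 9873 under LPS, just within 2-fold on the centred scale (-0.94). Cp, ceruloplasmin, an iron oxidase, had 0.95 FPKM at rest and 109 at 24 h, and Slc25a37, which carries iron into mitochondria, 8.07 and 44.3. The transcripts of the integrated stress response were higher in 11 of 18 cases (median 1.22, and 0.79 with a pseudocount of 5). Its factor Atf4 stood at 72.4 FPKM at rest, then 69.4, 107, 147 and 257 under LPS. Ddit3, the gene of CHOP, stood at 24.1 FPKM at rest, then 4.73, 17.6, 33.95 and 52.6 under LPS. Nupr1, a stress gene, was highest at 8 h (9.46 FPKM at rest, then 217, 323, 206 and 108 under LPS). Chaperones of the endoplasmic reticulum were near the background, with 1 of 20 higher and 2 lower, and Herpud1, of its degradation pathway, was lower at 25.4 and 6.56. Of the cytosolic chaperones the stress-inducible Hspa1a and Hspa1b, near-identical genes that may share reads, were higher (0.94 and 43.1 FPKM for Hspa1a, 0.54 and 27.3 FPKM for Hspa1b), while Hspa8 was within 2-fold.

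**Figure D5:**
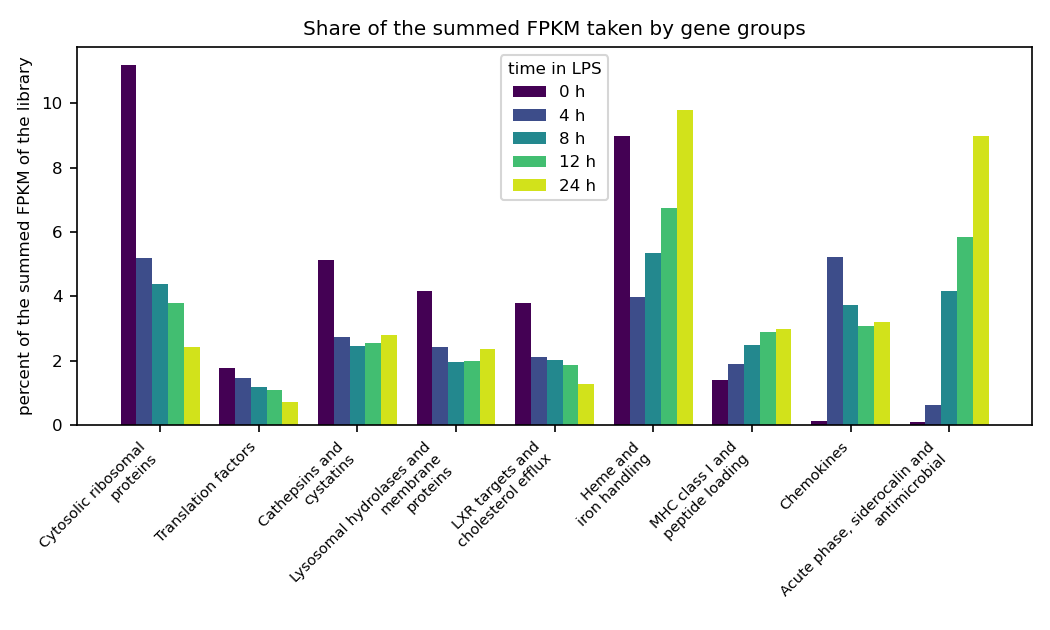
Percent of the summed FPKM of each library (vertical) held by 9 gene lists, 1 bar per library in the order 0, 4, 8, 12 and 24 h of LPS. The ribosomal proteins go from 11.2% to 2.44%, and the acute-phase list from 0.096% to 8.98%.

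Lipid metabolism, a subject named in the series title, differed by branch. The enzymes from squalene to cholesterol were lower in 6 of 11 cases (median -1.16, and -0.78 with a pseudocount of 5), and 0 were higher. Sqle, which makes squalene epoxide, stood at 24.7 FPKM at rest, then 12.9, 15.5, 12.6 and 6.94 under LPS. The median of the list was -0.30, -0.05, -0.61 and -1.16 over the 4 LPS times in turn. In the mevalonate branch above it 5 of 10 were lower (median -0.98, and -0.56 with the length trend removed), but Ggps1, which leads to protein prenylation, was higher (3.9 and 9.41 FPKM). The regulators of these enzymes were within 2-fold in all 10 cases, Insig1 (40.1 and 19.1 FPKM) and Scap, which escorts SREBP (13.2 and 5.88 FPKM), by a margin so narrow that both were over 2-fold lower without centring.

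Cyp27a1, which oxidises cholesterol in mitochondria, stood at 37.4 FPKM at rest, then 8.61, 2.82, 1.37 and 1.08 under LPS, while Ch25h, which makes 25-hydroxycholesterol, was listed at 0 at rest, with 22.04, 30.6, 30.6 and 2.02 FPKM under LPS. Genes of triglyceride storage and lipolysis were lower in 8 of 18 cases and higher in 3. The fatty acid carriers Fabp4 (389.7 and 73.6 FPKM) and Fabp5 (2309 and 894 FPKM) were lower, as was Lpin1, a phosphatidate phosphatase (7.52 and 0.53 FPKM). Hilpda, which inhibits lipolysis, was higher (5.03 and 25.6 FPKM). In fatty acid activation and oxidation 8 of 24 were lower, among them Etfb, an electron carrier (63.3 and 10.1 FPKM), and 3 higher, among them Acsl1, which activates fatty acids, with 9.82 FPKM at rest, then 42.3, 127, 171 and 242 under LPS. Of the sphingolipid enzymes Smpdl3b was higher (1.17 and 29.4 FPKM). The ceramide synthase genes Cers6 (3.74 and 26.7 FPKM) and Cers5 (36.6 and 11.01 FPKM) differed in direction. In the synthesis of prostaglandins and leukotrienes 6 of 18 were higher and 7 lower. Ptgs2, the inducible cyclooxygenase, stood at 0.55 FPKM at rest, then 658, 359.7, 248 and 81.98 under LPS. Ptges, which makes prostaglandin E2 from its product, stood at 1.27 FPKM at rest, then 52.5, 390.2, 453 and 173 under LPS. Hpgd, which degrades prostaglandins, stood at 28.4 FPKM at rest, then 5.19, 0.87, 0.38 and 0.03 under LPS. Both synthetic enzymes were thus above rest at each time and the degrading enzyme below it.

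Lysosomal lists had negative medians under 2-fold. Of the lysosomal hydrolases and membrane proteins 9 of 37 were lower and 1 higher (median -0.53), and their share of the summed FPKM was 4.17% at 0 h and 2.36% at 24 h. Hexa, which degrades gangliosides, stood at 1024 FPKM at rest, then 354, 279.9, 225 and 199 under LPS. Galc, which degrades galactosylceramide, stood at 72.2 FPKM at rest, then 22.4, 7.78, 6.45 and 13.6 under LPS. Clcn7, a chloride transporter of the lysosome, was the higher member (69.6 and 139 FPKM). Of the proton pump's subunits 4 of 18 were lower (median -0.64, -0.42 with the length trend removed). The isoform Atp6v0d2 stood at 286 FPKM at rest, then 70.8, 28.7, 17.8 and 6.2 under LPS, and of the a subunits Atp6v0a1 was lower (172 and 24.7 FPKM) and Atp6v0a2 higher (10.2 and 21.3 FPKM). Among cathepsins Ctsd, among the highest genes at rest, had 10737 FPKM at rest, then 3395, 2494, 2527 and 3609 under LPS, while Ctsc, which activates granule proteases, had 23.5 and 154 and the inhibitor gene Cst7 1.33 and 72.1. In the autophagy list 1 of 32 was higher, below the background, and 5 were lower. The higher gene, Sqstm1, encodes the cargo receptor p62 and stood at 331 FPKM at rest, then 378, 290.4, 446 and 996 under LPS.

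Receptors and bridging ligands for the uptake of dying cells were lower in 9 of 17 cases, with a median of -1.10 that was -0.97 with the length trend removed, -0.59 with a pseudocount of 5 and -0.12 over all listed members with no filter. Gas6, a bridging ligand, was lowest at 12 h, with 235 FPKM at rest, then 63.7, 17.4, 7.15 and 19.3 under LPS, and Mfge8, another, stood at 599.8 FPKM at rest, then 246, 165, 128 and 79.4 under LPS. Mertk, the receptor of Gas6, was within 2-fold at 16.9 and 17.4 FPKM, named outside the rule after its value was seen. Annexins, which bind membranes with calcium, were lower in 4 of 9 cases, with Anxa1, a mediator of resolution, at 568 FPKM at rest, then 598, 417, 127 and 78.4 under LPS. Anxa3 stood at 123 FPKM at rest, then 93.9, 62.3, 30.02 and 9.99 under LPS. Both were lowest at 24 h. Of 9 genes in the S100 list 8 were lower, all of them S100 proteins. The exception was S100pbp, whose product binds an S100 protein and is not one (1.54 and 6.34 FPKM). S100a4 stood at 349 FPKM at rest, then 117, 71.2, 56.5 and 11.1 under LPS. S100a6 stood at 242 FPKM at rest, then 89.8, 69.3, 44.2 and 29.9 under LPS. S100a9 stood at 167 FPKM at rest, then 159, 89.2, 44.3 and 7.14 under LPS. The median of -1.76 was -0.90 with the length trend removed, and S100a8 and S100a9 are also neutrophil markers.

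The list with the lowest median was that of the ribosome. Of 82 cytosolic ribosomal proteins over the filter 80 were lower and 0 higher, with a median of -2.33, and -1.62 with the length trend removed. Their median was -0.75, -1.03, -1.42 and -2.33 over the 4 LPS times in turn. Together they held 11.2% of the summed FPKM at 0 h and 2.44% at 24 h. Rplp1, of the stalk, stood at 2188 FPKM at rest, then 646, 624, 540.1 and 355 under LPS. Rpl41 stood at 1736 FPKM at rest, then 515, 532, 509 and 488 under LPS. Rpl10a stood at 570.4 FPKM at rest, then 187, 141, 100.2 and 27.3 under LPS. Rpl41 was level from 4 h onwards, while Rpl10a was far lower again between 12 h and 24 h. Among the translation factors 16 of 63 were lower and 1 higher. The elongation factor gene Eef1a1 stood at 4387 FPKM at rest, then 2655, 2123, 1902 and 409 under LPS, with most of its difference between 12 h and 24 h, and Eef1b2 at 163 FPKM at rest and 26.2 at 24 h. The higher gene was Eif2ak2, which encodes the antiviral kinase PKR (9.50 and 58.96 FPKM). Factors of ribosome assembly were lower in 4 of 22 cases, near the background of 13.5%, with a median of -0.47. Among the lower were the nucleolar genes Npm1 (207 and 68.1 FPKM) and Fbl (48.9 and 20.9 FPKM). Aminoacyl-tRNA synthetases were below the background, with 1 of 34 higher, Aars (20.5 and 50.8 FPKM), and 0 lower.

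Mammalian mRNAs of the translation machinery are known to begin with a C and a run of pyrimidines. The first bases of 5 such genes and of Rpl10a are shown from 10 bases before to 20 after the RefSeq start, with the run in capitals.
Rplp2 (chr7:141447641-141447670, plus strand): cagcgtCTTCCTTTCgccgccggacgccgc
Rpl28 (chr7:4792955-4792984, plus strand): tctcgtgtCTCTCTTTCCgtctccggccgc
Rpl27a (chr7:109519185-109519214, plus strand): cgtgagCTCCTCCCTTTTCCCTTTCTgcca
Fau (chr19:6057937-6057966, plus strand): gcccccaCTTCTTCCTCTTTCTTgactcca
Eef1a1 (chr9:78481705-78481734, minus strand): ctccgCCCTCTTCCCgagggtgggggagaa
Rpl10a (chr17:28328461-28328490, plus strand): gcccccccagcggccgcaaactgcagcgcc
A C with at least 7 further pyrimidines, beginning within 5 bases of the start, stood in 20 of 61 ribosomal protein promoters (32.8%) and in 4.75% of all. Within the family the 20 with such a run had a median difference of -2.27 and the 41 without -2.32. No such run begins within 5 bases of the start in Rpl10a, which had the lowest difference of the 82 genes (-4.29), while Fau, whose product carries a ribosomal protein and which was named after its value was seen, had 1668 FPKM at rest and 312 at 24 h.

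Many housekeeping families stayed near rest. Zinc finger proteins named Zfp were higher in 13 of 226 cases and lower in 10, below the background in both directions. VPS proteins and sorting nexins (2 higher and 2 lower of 59) and nuclear pore genes (2 and 1 of 40) were also below it. Rab GTPases had 4 higher and 3 lower of 40, with the share of higher genes close to the background. In the cell cycle lists DNA replication had 2 of 35 higher and 4 lower, and 9 of 25 mitosis genes were over the filter. The list of G1 cyclins and CDK inhibitors did not stay near rest, with 4 of 19 higher and 5 lower, both above the background. Of the CDK inhibitors Cdkn1a, the gene of p21, stood at 34.9 FPKM at rest, then 1047, 289.9, 302 and 328 under LPS. Cdkn1c, the gene of p57, stood at 247 FPKM at rest, then 97.8, 47.4, 31.3 and 7.67 under LPS. They thus lay on opposite sides of rest at all 4 times. Among chromatin enzymes, the list of histone deacetylases and sirtuins had 5 of 21 higher, above the background, and 0 lower. Its lowest difference was that of Hdac5, within 2-fold at 32.3 and 16.3 FPKM. Tet2, which oxidises methylcytosine, had 2.75 FPKM at rest and 7.76 at 24 h. Kdm6b, which removes methyl marks from lysine 27 of histone H3, had 2.46 and 7.98. The list of Tet2 had 1 of 10 higher and 2 lower, and that of Kdm6b 3 of 20 higher and 1 lower. Of the cytoskeleton list 1 of 47 was higher, below the background, and 7 were lower, close to it. Lsp1, an actin-binding protein of leukocytes, stood at 104 FPKM at rest, then 70.7, 68.2, 34.7 and 9.02 under LPS. Lmna, the gene of lamin A, stood at 111 FPKM at rest, then 39.9, 8.62, 5.90 and 27.1 under LPS.

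Families defined by symbols alone gave a view with no choice of function. Of 176 sets of at least 8 genes that share the letters before the first digit, 135 had a median within 0.5 of 0. Medians of at least 1 were reached by 9, namely Gbp, Cxcl, Ifi, Ly, Parp, Ccl, Il, Casp and Tnfrsf, and medians of at most -1 by 6 (with a pseudocount of 5 both together were 9), namely Rpl, Rps, the S set that holds the S100 genes, Eef, Ndufb and Ndufa. With the length trend removed the Ndufa median of -1.001 was -0.22 and the Ndufb median of -1.02 was -0.58, while Rpl stood at -1.64 and Rps at -1.44.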

How the data were processed

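Total RNA was sequenced on a BGISEQ-500, 1 library a time. The deposited table gives FPKM per gene, made by the authors before deposit. The submitters' processing notes name Bowtie2, RSEM and GRCm38, without versions or order. The strand of counting is not given in the sources used here. Whole reads could not be recovered from the steps between low values, so the depth is unknown and no counting intervals are given.

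Genes whose mean over the 5 libraries reached 1 FPKM were kept, log2(FPKM + 1) was taken, and each library was centred on its median over these genes. There were 20 symbols that had been turned into dates, and they were restored. The 101 function lists, the 7 marker lists and the members were chosen with earlier results of these data known, and some genes belong to several lists. The text names, per list, the 4 largest differences, the largest in the opposite direction and the highest level in either library, and over all genes the 25 largest in each direction with at least 10 FPKM in either library. Others are named as chosen after their values were seen. Shares of summed FPKM refer to all 13339 genes. Lengths are those of the longest protein-coding transcript in GENCODE M21, known for 9746 genes. Promoters are those of RefSeq, the first listed per gene. Scripts used Python 3.11.15, pandas 2.3.3, numpy 2.4.6 and matplotlib 3.10.9, and were tested on simulated data. With 1 library a group no test was made. Some genes are not reported here.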

Additional observations from a re-analysis of the deposited data

How the results depend on the processing

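With a pseudocount of 5 in place of 1, 751 genes were at least 2-fold higher and 784 lower, and with a 4-fold threshold 460 and 318, in place of 1163 and 1321. With a pseudocount of 5, 9 in place of 15 symbol families had a median past 2-fold, and the interferon element stood in 13.7% of the promoters of higher genes in place of 10.3%. No list median past 2-fold, and none of the up to 620 named genes past 2-fold that each setting covered, changed sign under the 8 alternatives tried, which were 3 scalings, removal of the length trend, pseudocounts of 0.1 and 5, no filter and a mean of at least 5 FPKM. Some list medians nearer 0 did change sign, such as that of the C-type lectins, -0.05 and 0.42 with a mean of at least 5 FPKM. Of the 24 list medians past 2-fold, 7 came under it with a pseudocount of 5, 5 with no filter, 3 with the length trend removed, 1 without centring and 1 with a mean of at least 5 FPKM. The share of higher genes among those past 2-fold was 46.8%, and 54.0% with the length trend removed. No paired analysis was possible because each time is 1 library. The limit of all values is that single library, and the unknown depth leaves the error of low values unmeasured.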

Other observations

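Some neighbouring genes lay on the same side of rest. These runs were described after the values had been seen. Along the chromosomes, counting only genes over the filter, there were 46 runs of at least 3 consecutive genes at least 2-fold higher at 24 h. They held 189 of the 1163 higher genes, and 47 runs of lower genes held 155 of 1321. Most genes past 2-fold thus lay in no run. How many runs a random order of these genes would give was not tested. Many runs are clusters of related genes, which share ancestry and may share reads. The longest higher runs held 10 genes each. On chromosome 1, from 173521311 to 174031755 (GRCm38), lay the p200 genes up to Ifi205, with a median difference of 3.89. On chromosome 11, from 48865245 to 49135387, lay Irgm1 and other GTPase genes, with a median of 3.14. Runs of 7 held the Schlafen genes on chromosome 11, the Phf11 genes on chromosome 14 and the Ly6 genes on chromosome 15. On chromosome 19 a run of 5 held Ifit genes, with a median of 5.65. On chromosome 17 a run of 4 held Psmb9, Tap1, Psmb8 and Tap2, which make and transport peptides for MHC class I.

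The longest lower run held 8 genes on chromosome 3, from S100a1 to S100a10, with a median difference of -2.34. A run of 6 lay on chromosome 7 from Ctsd, a protease gene of the lysosome, to Cd81, a tetraspanin gene.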
